A study of Mus musculus with 2 samples.

Results

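Translation initiation and elongation factors were described in 2 poly(A) RNA libraries of mouse G1E-ER4 cells. The members were the protein-coding genes whose GENCODE mouse symbols begin with Eif1 to Eif6, Eef1 or Eef2, without the eIF2 kinases (Eif2ak genes). The rule gave 64 genes, of which 63 had a row in both gene tables, out of 21474 protein-coding genes with a row. Eef1akmt4 was not matched to a row and was not analysed here. In the role lists used here, 51 members were counted under initiation, 8 under elongation and 4 as modifying enzymes. The lists largely follow factor names, so initiation counts eIF5A, the eIF4E-binding proteins and Eif4a3, and elongation counts Eef2k and Eef1e1. The members lie on 20 chromosomes.

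G1E-ER4 is an immortalized mouse erythroid line without a functional Gata1 gene of its own, in which GATA1, the master regulator of red cell genes, was put back as a fusion with the ligand-binding domain of the estrogen receptor. Both libraries came from cells kept for 30 h in 10 nM 17beta-estradiol, the hormone that switches GATA1 on and starts erythroid maturation, and they are labelled biological replicates 1 and 2 of 1 group. No untreated library was analysed here, so the levels below describe the treated state and give no effect of estradiol. Nothing in the labels says how far the cultures were separate, and the spread between the replicates may be technical.

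The depth was 73681313 expected counts for replicate 1 and 56056399 for replicate 2. All 10 erythroid markers were at 1 TPM or more in both libraries, and their means lay between 78.3 TPM (Epor) and 144036 TPM (Hbb-bs). Of 18 markers of other cell types, 3 reached 1 TPM in both libraries, all of them megakaryocyte genes. TPM (a transcript abundance corrected for length and scaled to a fixed library sum) allows for gene length, so that levels of different genes can be set side by side. Errors are SDs over the 2 libraries, and no test between conditions was possible with 1 group.

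Initiation factors bring the initiator tRNA and the small ribosomal subunit to an mRNA and find the start codon, after which the large subunit joins. The complex eIF4F binds the mRNA cap and unwinds the leader, eIF3 is the scaffold on the small subunit, and eIF2 delivers the initiator tRNA and is recharged with GTP by eIF2B. Elongation factor eEF1A then brings each aminoacyl-tRNA to the ribosome and eEF2 moves the ribosome along the mRNA. In red cell precursors this machinery serves globin mRNA among others, and the heme-regulated kinase of eIF2 couples it to the heme supply.

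The translation factors were mostly abundant, and a few of them made up most of the total. The 63 genes held 0.997% of all TPM in replicate 1 and 0.873% in replicate 2, a mean of 0.935% ± 0.0877 (SD, n = 2). Of the 63, 52 reached 1 TPM in both libraries, which is 82.5%, against 35.3% of all protein-coding genes. At 100 TPM the count was 18, or 28.6%, against 4.32% of protein-coding genes. The median level of the members was 34.8 TPM, against 0.015 TPM over all protein-coding genes. Among genes at 1 TPM or more in both libraries the medians were 54.2 TPM for the 52 members and 15.4 TPM for 7570 protein-coding genes.

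**Figure D1:**
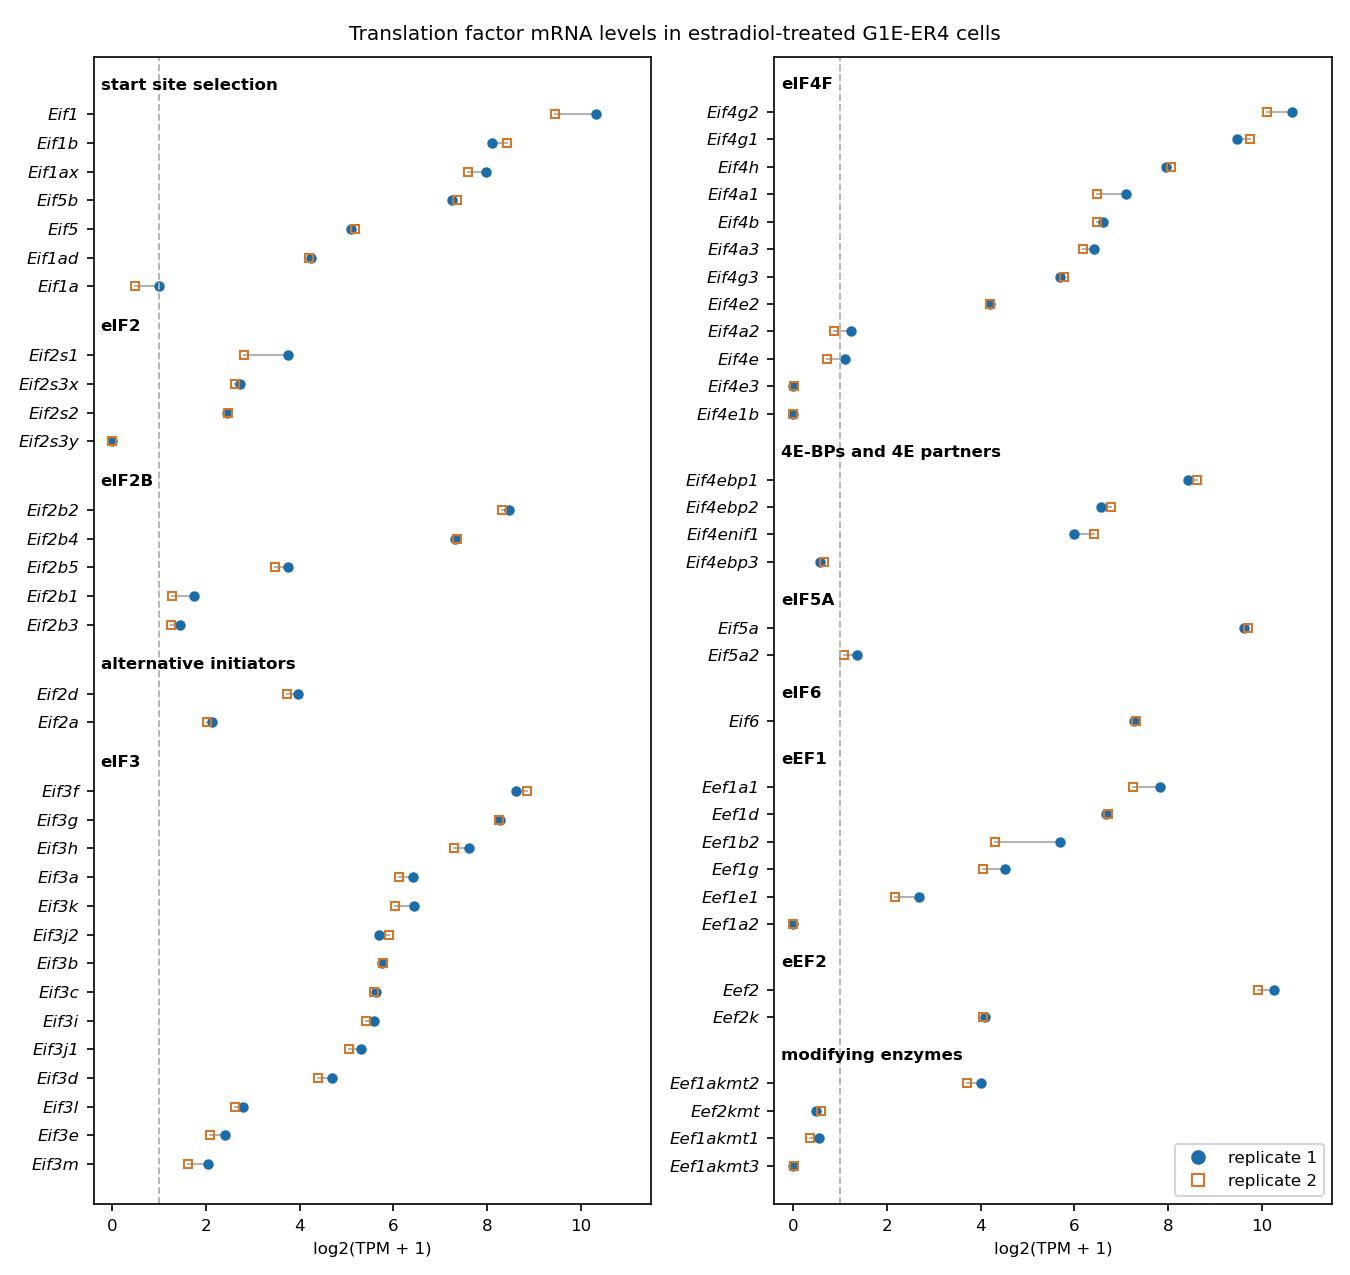
Level of each of the 63 translation factors as log2(TPM + 1), grouped by role and ordered within each group by mean TPM. Filled circles are replicate 1, open squares replicate 2, and the dashed line marks 1 TPM. Eif4g2, Eef2 and Eif1 stand highest, and Eif4e, Eif4a2 and Eif1a lie close to the line.

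The 5 highest members, Eif4g2, Eef2, Eif1, Eif5a and Eif4g1, held 56.2% of the members' summed TPM in replicate 1 and 51.3% in replicate 2. Each of these overlapped in range with its neighbour in the order, while Eif4g2 and Eef2 both lay above Eif5a and Eif4g1 in both libraries. Eif4g1 and the next gene, Eif3f, did not overlap as whole genes. On protein-coding transcripts their order was reversed, with Eif4g1 at 365.92 TPM in replicate 1 and 329.27 TPM in replicate 2. Eif3f had 389.16 TPM and 462.49 TPM on them, so the place of Eif4g1 among the 5 highest holds for whole genes only. Over the 60 members with any counts, 45 of the 59 neighbouring pairs in the order overlapped and 14 did not. At the other end, 11 members did not reach 1 TPM in both libraries. Of these, Eef1a2, Eif4e1b and Eif2s3y had 0 counts in both libraries, which allows up to 3 counts in each. Eif4e3 and Eef1akmt3 had 0 counts in replicate 1 and 1 count in replicate 2, and the other 6 had more counts.

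By whole genes, the list of start site factors took 20.1% of the members' TPM in replicate 1 and 16.6% in replicate 2. It also counts Eif5b and Eif1ad. Eif1, on chromosome 11 (mm10, chr11:100319885-100322096), encodes the factor that guards start codon choice and was at 1282.07 TPM in replicate 1 and 700.92 TPM in replicate 2. Its mean was 991 ± 411 TPM (SD, n = 2). Its paralog Eif1b was at 275.10 TPM and 343.48 TPM in the same order. Eif1 was the higher of the pair in both libraries, by 4.66-fold in replicate 1 and 2.04-fold in replicate 2, so that the ratio itself differed between the libraries. Eif5b, the GTPase that joins the large subunit, was at 150.13 TPM in replicate 1 and 163.41 TPM in replicate 2, of which 10.59 TPM and 11.24 TPM lay on the protein-coding transcript. Eif5, which makes eIF2 hydrolyse its GTP at the start codon, had 33.18 TPM and 35.30 TPM. Eif1ad, an eIF1A domain protein, was at 17.88 TPM and 17.41 TPM.

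The genes for eIF1A, the partner of eIF1 on the small subunit, stood far apart as whole genes but not on protein-coding transcripts. Eif1a was at 1.01 TPM in replicate 1 and 0.41 TPM in replicate 2, and the X-linked Eif1ax (mm10, chrX:159372178-159389928) was at 249.89 TPM and 192.75 TPM. The log2 ratio of Eif1a to Eif1ax on (TPM + 1) was -7.03 ± 0.098 (SD, n = 2). Of the Eif1ax TPM, however, 99.84% in replicate 1 and 99.75% in replicate 2 was assigned to a transcript of 416 bases annotated as a retained intron. The protein-coding Eif1ax transcript of 5172 bases held 0.41 TPM and 0.48 TPM, on 152.41 and 138.43 estimated counts. With protein-coding transcripts alone, the log2 ratio of Eif1a to Eif1ax was 0.22 ± 0.41 and its sign differed between the libraries.

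The sequences below show where the short Eif1ax transcript and those of Eif2b2 and Eif5b leave the protein-coding transcript, since most of the TPM of these genes was assigned to transcripts that run past that place. Each runs 5′ to 3′ on the plus strand of mm10, read from GENCODE M21 transcripts, with the bases shared with the protein-coding transcript in lower case and the bases it leaves out in capitals.
Eif1ax, chrX:159376425-159376504: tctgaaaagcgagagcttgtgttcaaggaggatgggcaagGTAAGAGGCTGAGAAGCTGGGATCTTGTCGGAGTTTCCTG
Eif2b2, chr12:85219903-85219949: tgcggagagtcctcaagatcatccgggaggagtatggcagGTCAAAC
Eif5b, chr1:38033118-38033197: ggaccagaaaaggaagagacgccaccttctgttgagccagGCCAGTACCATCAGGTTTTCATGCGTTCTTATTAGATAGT
In all 3 the capitals follow the shared bases in the genome without a gap. In Eif1ax, 322 of the 416 bases (77.4%) were shared with the protein-coding transcript, and 94 were not. In Eif2b2, 331 of 338 bases (97.9%) were shared and 7 were not. In Eif5b, 4120 of 5788 bases (71.2%) were shared. Reads inside the shared bases fit both transcripts of a gene, and how the estimate divided them was not tested.

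The 3 subunits of eIF2 itself were far below most initiation factors. Eif2s1 encodes the alpha subunit, which the eIF2 kinases phosphorylate, and was at 12.48 TPM in replicate 1 and 5.97 TPM in replicate 2. Eif2s2, the beta subunit, was at 4.48 TPM and 4.50 TPM. Eif2s3x, the X-linked gamma subunit, was at 5.62 TPM and 5.18 TPM. The ranges of Eif2s1 and Eif2s3x both lay above that of Eif2s2, and those of Eif2s1 and Eif2s3x did not overlap. The Y-linked copy Eif2s3y had 0 counts in both libraries, while the labels give the line as male. Together the 4 genes took 0.226% of the members' TPM in replicate 1 and 0.179% in replicate 2.

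The eIF2B subunits, which form the exchange factor of eIF2, were unequal. Eif2b2 (beta) was at 354.61 TPM in replicate 1 and 316.28 TPM in replicate 2, and Eif2b4 (delta) at 157.71 TPM and 162.75 TPM. Eif2b5 (epsilon), which carries the catalytic part, was at 12.41 TPM and 10.04 TPM. Eif2b1 (alpha) was at 2.33 TPM and 1.43 TPM, and Eif2b3 (gamma) at 1.74 TPM and 1.39 TPM. The means of the highest and the lowest subunit therefore lay 214-fold apart. The gap was smaller on transcripts annotated as protein-coding. On protein-coding transcripts Eif2b2 held 42.43 TPM (replicate 1) and 31.27 TPM (replicate 2). Eif2b4 had 14.65 TPM and 17.27 TPM on them, and its leading transcript of 512 bases had no entry in the annotation used. By protein-coding transcripts the subunits had means from 1.11 to 36.9 TPM.

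Of the factors that can deliver the initiator tRNA outside eIF2, Eif2d was at 14.67 TPM in replicate 1 and 12.19 TPM in replicate 2, and Eif2a at 3.38 TPM and 3.06 TPM. In both libraries Eif2d lay above, and Eif2a below, each of the 3 expressed eIF2 subunits.

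All 14 eIF3 genes reached 1 TPM in both libraries, but they were not at a common level. The subunit genes Eif3f, Eif3g and Eif3h led the list. Eif3f was at 389.26 TPM in replicate 1 and 462.66 TPM in replicate 2. Eif3g, which encodes an RNA-binding subunit, was at 309.13 TPM and 304.52 TPM. Eif3h was at 194.76 TPM and 156.73 TPM. The lowest, Eif3m, was at 3.13 TPM and 2.06 TPM, and its mean lay 164-fold below that of Eif3f. Eif3e and Eif3l were also low, at 4.31 TPM and 3.26 TPM and at 5.89 TPM and 5.18 TPM in replicates 1 and 2. The large scaffold subunits Eif3a (85.07 TPM and 68.14 TPM), Eif3b (53.34 TPM and 53.62 TPM) and Eif3c (48.71 TPM and 47.07 TPM) stood between. Eif3k, Eif3i and Eif3d had means of 75.2, 44.2 and 22.5 TPM. Apart from Eif3f (99.97% in replicate 1 and 99.96% in replicate 2) and Eif3m (99.0% and 100%), the TPM of the eIF3 subunits named up to Eif3c lay wholly on protein-coding transcripts. Those other subunits have 1 transcript each in the annotation, a protein-coding one, so that for them this share was fixed in advance.

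The loosely attached subunit eIF3j is encoded by a pair of genes that appear to share reads, and the division between them is uncertain. How alike the sequences of the pair are was not measured. Eif3j1 was at 38.67 TPM in replicate 1 and at 32.32 TPM in replicate 2, and Eif3j2 at 50.45 TPM and 59.24 TPM. Their estimated counts were fractional, and those of the pair summed to whole numbers within 0.01, 15457 in replicate 1 and 12513 in replicate 2. The log2 ratio of Eif3j1 to Eif3j2 was -0.61 ± 0.34 (SD, n = 2), and -1.73 ± 0.21 by protein-coding transcripts.

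The list of eIF4F, its helpers and related genes held the largest share of the members' TPM among the roles. It took 29.5% in replicate 1 and 29.3% in replicate 2, and it also held some of the lowest members. This rank rests on counting Eif4g2, with 1595.82 of the list's 2937.63 TPM in replicate 1 and 1111.79 of 2559.85 TPM in replicate 2. The list also counts Eif4a3. Eif4g2 (mm10, chr7:111067750-111083030) encodes DAP5, a scaffold related to eIF4G that lacks the eIF4E-binding site, and was at 1595.82 TPM in replicate 1 and 1111.79 TPM in replicate 2. The main scaffold Eif4g1 (chr16:20668313-20692884) was at 705.41 TPM and 858.74 TPM. Eif4g3, its closest relative, was at 51.00 TPM and 54.30 TPM. Eif4g1 exceeded Eif4g3 by 13.8-fold in replicate 1 and 15.8-fold in replicate 2, and it was below Eif4g2 in both libraries. For Eif4g2, 94.68% and 95.19% of the TPM lay on a transcript of 742 bases annotated as protein-coding. Whether so short a transcript holds the whole coding sequence was not checked. For Eif4g1, the leading transcript was a processed transcript of 626 bases with 37.17% and 51.87% of the TPM, and protein-coding transcripts held 365.92 TPM in replicate 1 and 329.27 TPM in replicate 2. In estimated counts, which do not correct for length, Eif4g1 had 136117 in replicate 1 and 105107 in replicate 2, while Eif4g2 had 79140 and 44624. The order of Eif4g1 and Eif4g2 thus differed between the level per length and the raw count.

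The cap-binding protein genes were low. Eif4e, the cap-binding subunit of eIF4F, was at 1.16 TPM (235.72 estimated counts) in replicate 1 and 0.65 TPM (100.33 estimated counts) in replicate 2. Eif4e2 encodes 4EHP, a cap-binding protein that does not bind eIF4G and is known for repressing translation, and was at 17.39 TPM and 17.51 TPM. The log2 ratio of Eif4e to Eif4e2 was -3.29 ± 0.28 (SD, n = 2), and it was the same to 2 decimals by protein-coding transcripts. Eif4e3 had a single count in all, and Eif4e1b none.

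Of the genes for eIF4E-binding proteins, Eif4ebp1, Eif4ebp2 and Eif4enif1 stood far above Eif4e, and Eif4ebp3 was below it in both libraries. Eif4ebp1, which holds eIF4E away from eIF4G until it is phosphorylated by the mTOR pathway, was at 343.59 TPM in replicate 1 and 393.93 TPM in replicate 2. Eif4ebp2 was at 94.69 TPM and 108.54 TPM, and the lowest, Eif4ebp3, at 0.49 TPM and 0.57 TPM. The ratio of Eif4ebp1 to Eif4ebp2 was steady, at 3.63-fold in both libraries. Eif4enif1, which carries eIF4E into the nucleus, was at 62.49 TPM and 85.09 TPM. The leading Eif4enif1 transcript was not the same in both libraries.

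The helicase eIF4A comes from the paralogs Eif4a1 and Eif4a2, and the related Eif4a3 serves the exon junction complex. Eif4a1 was at 136.52 TPM in replicate 1 and 88.84 TPM in replicate 2. Eif4a2 was at 1.36 TPM and 0.84 TPM, and Eif4a3 at 84.81 TPM and 71.75 TPM. Eif4a1 exceeded Eif4a2 by 100-fold in replicate 1 and 106-fold in replicate 2. By protein-coding transcripts the log2 ratio of Eif4a1 to Eif4a2 on (TPM + 1) was 3.82 ± 0.011, against 5.74 ± 0.18 by whole genes (SD, n = 2). For Eif4a1 to Eif4a3 it was -1.87 ± 0.14 by protein-coding transcripts, against 0.49 ± 0.27 by whole genes, so that the higher gene of this pair depended on the transcripts counted. Eif4h and Eif4b, which stimulate the helicase, were at 246.73 TPM and 267.40 TPM and at 97.43 TPM and 88.02 TPM in replicates 1 and 2.

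The coding sequences around the DEAD box, the motif that names this helicase family, show how alike the copies are. Each line runs 5′ to 3′ in the sense of the gene, from GENCODE M21 on mm10, and joins exons across an intron. The 12 capitals are the codons of the 4 DEAD residues.
Eif4a1, chr11:69668683-69669078, minus strand: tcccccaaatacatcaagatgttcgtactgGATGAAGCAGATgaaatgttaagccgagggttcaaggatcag
Eif4a2, chr16:23110153-23110304, plus strand: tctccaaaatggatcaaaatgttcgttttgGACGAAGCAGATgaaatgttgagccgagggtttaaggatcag
Eif4a3, chr11:119294020-119294382, minus strand: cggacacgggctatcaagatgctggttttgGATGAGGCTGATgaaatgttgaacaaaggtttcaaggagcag
Eif4a1 and Eif4a2 had the same base at 62 of these 72 positions, and Eif4a1 and Eif4a3 at 49. Over the aligned coding sequences, Eif4a1 and Eif4a2 had 847 of 1078 bases in common (78.6%), and Eif4a1 and Eif4a3 818 of 1205 (67.9%). Each coding sequence came from a single transcript, of 1218 coding bases in Eif4a1, 1086 in Eif4a2 and 1233 in Eif4a3. Whether the shorter one of Eif4a2 is complete was not checked. These sequences also differed in base composition, with 57.6% G or C at the third codon position in Eif4a1, 44.5% in Eif4a2 and 70.1% in Eif4a3.

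**Figure D2:**
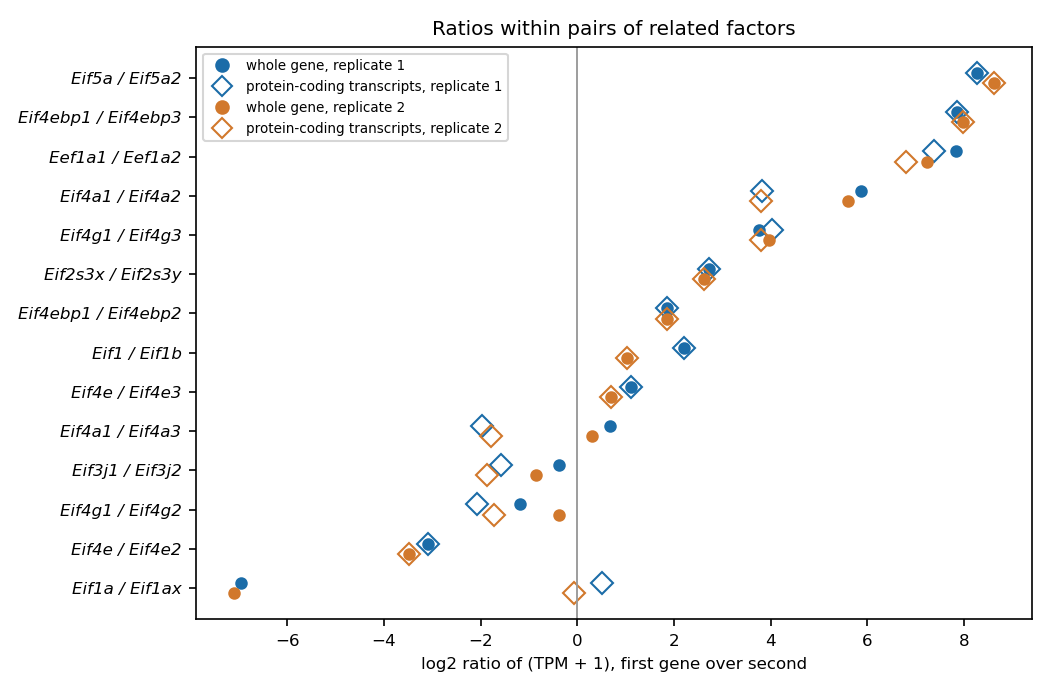
The log2 ratio of (TPM + 1), first gene over second, for 14 pairs of related factors in replicate 1 (blue) and replicate 2 (orange). Filled circles use whole genes and open diamonds use transcripts annotated as protein-coding. Circles and diamonds lie apart for Eif1a over Eif1ax, for Eif4a1 over Eif4a2 and over Eif4a3, for Eif4g1 over Eif4g2 and for Eif3j1 over Eif3j2. Eef1a2 and Eif2s3y had 0 counts and Eif4e3 at most 1, so these ratios depend on the added 1 TPM and are no measure of fold.

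Eif5a (mm10, chr11:69916714-69921958), which carries hypusine and helps the ribosome through difficult stretches of peptide, was at 790.63 TPM in replicate 1 and 839.43 TPM in replicate 2. Its paralog Eif5a2 was at 1.57 TPM and 1.13 TPM. The log2 ratio of Eif5a to Eif5a2 on (TPM + 1) was 8.45 ± 0.25 (SD, n = 2). Eif6, which keeps the large subunit from joining too early, was at 153.31 TPM and 158.02 TPM.

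Among elongation factors, Eef2 was high and the eEF1 genes were lower. Eef2 (mm10, chr10:81176631-81182498) was at 1231.63 TPM in replicate 1 and 967.80 TPM in replicate 2. With 270220 and 162056 estimated counts it was the member with the most counts in both libraries, and its annotation holds 1 transcript. Eef2k, the kinase that inhibits eEF2, was at 16.17 TPM and 15.61 TPM, of which 3.90 TPM and 3.20 TPM lay on protein-coding transcripts. Eef1a1, the ubiquitous eEF1A gene, was at 226.12 TPM and 150.59 TPM, of which 164.80 TPM and 110.74 TPM lay on protein-coding transcripts. Its estimated counts were fractional, 21637.96 and 11176.84, and whether it shares reads with other genes was not tested. Its muscle and brain paralog Eef1a2 had 0 counts in both libraries. Eef2 was above Eef1a1 in both libraries, and the ranges did not overlap. Eef1d, a subunit of the complex that exchanges the nucleotide on eEF1A, was at 101.95 TPM and 104.63 TPM. The other exchange subunits were lower, with Eef1b2 at 50.62 TPM and 18.94 TPM and Eef1g at 21.98 TPM and 15.49 TPM. On protein-coding transcripts Eef1b2 had 11.98 TPM and 6.57 TPM and Eef1g 21.53 TPM and 15.42 TPM, so that their order was reversed. Eef1e1, a component of the multi-tRNA synthetase complex, was at 5.48 TPM and 3.51 TPM.

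Of the 4 methyltransferase genes for eEF1A and eEF2, Eef1akmt2 alone reached 1 TPM in both libraries, with 15.11 TPM in replicate 1 and 12.14 TPM in replicate 2. Eef2kmt was at 0.40 TPM and 0.51 TPM and Eef1akmt1 at 0.47 TPM and 0.29 TPM. Eef1akmt3 had a single count.

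Several members were thus high as genes but low on transcripts annotated as protein-coding. Of 33 members with at least 2 annotated transcripts and 1 TPM in both libraries, 31 had the same leading transcript in both, or 93.9%, against 88.9% of 5714 protein-coding genes. For 9 of the 33 (27.3%) the leading transcript was not annotated as protein-coding in either library, against 24.2% of those genes. Under 50% of the TPM lay on protein-coding transcripts in both libraries for 9 of the 33 (27.3%), against 25.2%. These shares were near the background, so the translation factors did not stand out in them. The 9 with under 50% were Eif2b2, Eif1ax, Eif2b4, Eif5b, Eif4a1, Eif4g3, Eif3j1, Eef1b2 and Eef2k. In Eif2b2 the 338-base retained intron held 4063.35 estimated counts in replicate 1 and 2492.99 in replicate 2, close to the 4439.51 and 2378.71 of the protein-coding transcript, yet 84.03% and 82.83% of the TPM. In Eif5b, whose leading transcript of 5788 bases is long, 58600.45 and 48904.03 counts went to it, against 6032.55 and 4904.97 for the protein-coding transcript.

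**Figure D3:**
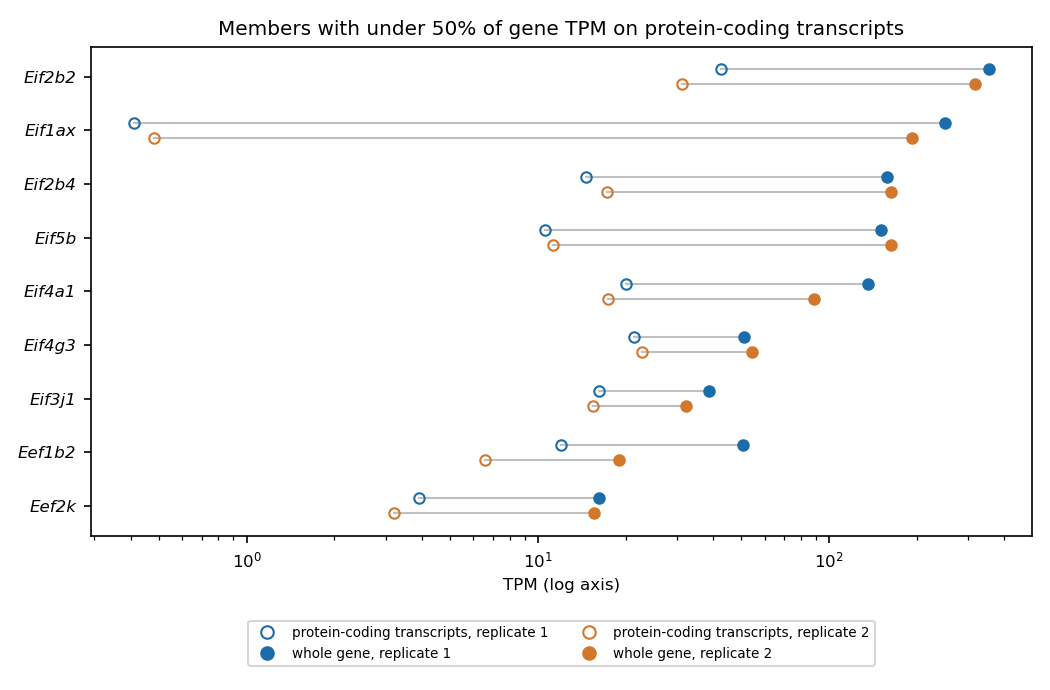
TPM of the whole gene (filled) and of its transcripts annotated as protein-coding (open) for the 9 members with under 50% of TPM on such transcripts, on a log axis, in replicate 1 (blue) and replicate 2 (orange). Eif1ax shows the longest line, with 249.89 and 192.75 TPM for the gene and 0.41 and 0.48 TPM for protein-coding transcripts. For Eif2b4 the type of the leading transcript was not known.

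Levels were set against the base composition of the transcripts, which the choice of members did not use. The GC content is the mean over the protein-coding transcripts of a gene, and the median was 51.1% in members and 49.8% in all protein-coding genes. Below 45% GC, 7 of 18 members reached 10 TPM in both libraries (38.9%). Between 45% and 50% it was 6 of 10 (60.0%), between 50% and 55% 19 of 24 (79.2%), and at 55% or more 9 of 11 (81.8%). The same shares over all protein-coding genes were 8.02%, 16.6%, 25.5% and 32.3%. Spearman's rho between GC content and level was 0.31 across the 63 members and 0.28 across 21428 protein-coding genes, a description across genes of the same 2 libraries. The pattern was therefore also seen over all protein-coding genes. Whether GC content has a part in the measured levels was not tested.

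**Figure D4:**
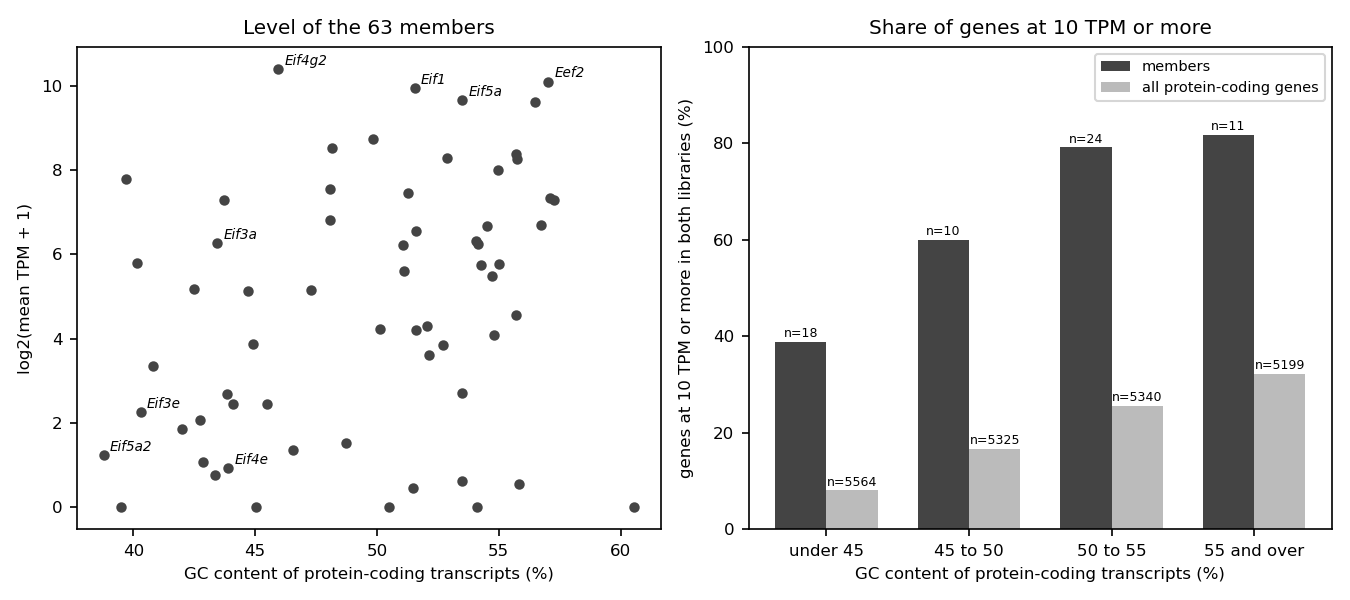
Left, log2(mean TPM + 1) of the 63 members against the GC content of their protein-coding transcripts. Right, the share of genes at 10 TPM or more in both libraries in 4 classes of GC content, for members (dark bars) and all protein-coding genes (light bars), with the number of genes above each bar. Shares increase with GC content in both sets, from 38.9% to 81.8% in members.

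The members called different between the replicates were all lower in replicate 2, the direction in which more of all genes were called too. Counts were scaled by TMM, and a gene was called at a 1.5-fold difference, on at least 20 summed counts. None of the 58 members tested was called higher in replicate 2, while 5.13% of 10445 genes were. In the lower direction 7 members were called (12.1%), against 10.4% of genes, a share close to the background. The count depended on the settings, with 12 members lower by the ratio of TPM and 1 lower at a fold of 2. The median log2 fold, replicate 2 over replicate 1, was -0.14 in members and -0.01 over all genes. Of the members, 20 were above 0 and 38 below, against 5109 above and 5336 below over all 10445 genes. After a trend on GC content was subtracted the members' median was -0.11, and 7 were still called lower. With 1 library on each side these are differences between 2 libraries and have no test.

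Eef1b2 had the largest difference, with 1069 estimated counts in replicate 2 and 3226 in replicate 1. The log2 fold was -1.13, with an exact 95% binomial interval from -1.23 to -1.03 that covers counting error only. Eif2s1 followed with 1104 counts in replicate 2 and 3023 in replicate 1, a log2 fold of -0.99 (-1.09 to -0.89). Eif1, the most abundant of the called genes, had 45861.53 counts in replicate 2 and 111109.76 in replicate 1, a log2 fold of -0.81 (-0.83 to -0.80). These 3 differences were far beyond counting error. Eif1a, at -0.80, had 55 counts in replicate 2 and 133 in replicate 1. Eif4e, at -0.77, had 100.33 and 235.72 counts, and Eif2b1, at -0.66, had 101 and 220 counts, in the same order. Eef1akmt1 (-0.63), with 11 counts in replicate 2 and 24 in replicate 1, had an interval that held 0. The members that came nearest to 1.5-fold without being called were Eef1e1, at -0.58, and Eef1a1, at -0.49. The highest folds were those of Eif1b (0.37) and Eif4enif1 (0.36). The myeloid markers Mpo, Elane, Prtn3 and Csf1r summed to 10.79 TPM in replicate 2 and 0.32 TPM in replicate 1, none reaching 1 TPM in both, and the 10 erythroid markers to 286596 TPM and 271792 TPM. Their part in the differences of the translation factors was not tested.

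**Figure D5:**
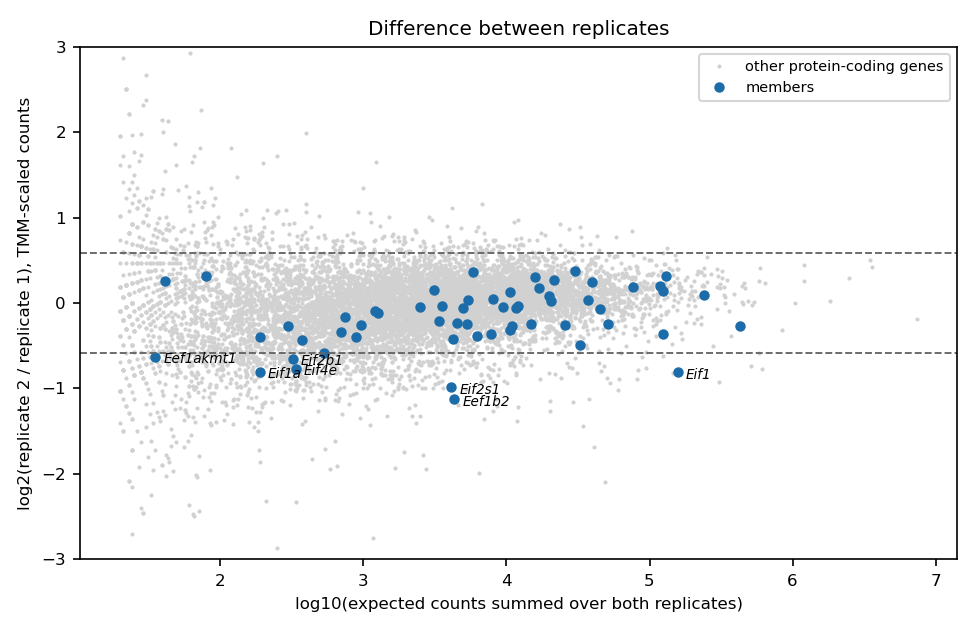
The log2 fold of TMM-scaled counts, replicate 2 over replicate 1, against the log10 of counts summed over both libraries, for members (blue) and other protein-coding genes (grey) with at least 20 summed counts. Dashed lines mark 1.5-fold, 29 protein-coding genes lie beyond the drawn range, and the 7 members called lower in replicate 2 are named.

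Partners and regulators of the factors were listed apart. Of 24 such genes, 23 were at 1 TPM or more in each library, where 35.3% of all protein-coding genes were. The list's median was 40.6 TPM. Pabpc1, the main poly(A)-binding protein and a partner of eIF4G, was at 1537.75 TPM in replicate 1 and 1438.56 TPM in replicate 2. Ppp1r15a, which directs the phosphatase that removes phosphate from eIF2 alpha, was at 738.06 TPM and 736.06 TPM. Pabpc4 was at 495.01 TPM and 558.39 TPM. The lowest, Mcts1, a partner of DENR in reinitiation, was at 0.30 TPM and 0.49 TPM. The phosphatase subunit gene thus stood far above the eIF2 subunits themselves, of which the highest reached 12.48 TPM. Between replicates, none of the 24 was higher and Abce1, a ribosome recycling factor, was lower in replicate 2, with a log2 fold of -0.67. Over all genes tested, 5.13% were called higher and 10.4% lower.

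Some limits bear on single values. Transcripts annotated as protein-coding can be short, as the leading ones of Eif4g2 (742 bases) and Eif6 (373 bases). Levels on protein-coding transcripts are therefore not always levels of a full mRNA. The counts were not stated to use strand, and 18 of the 63 members overlap a gene on the opposite strand in the annotation. Reads of near-identical copies and processed pseudogenes were divided by the authors' estimation.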

How the data were processed

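The authors deposited gene and transcript tables for 2 poly(A) libraries of 1 group. Expected counts are estimated fragment counts, per the file headers. TPM and FPKM values are scaled for length and depth, per the file headers, and the deposited transcript tables give each transcript's percent of gene TPM. Per the deposited description files the build is mm10 and the annotation GENCODE M4. Aligner, quantifier and strand handling were not given in the sources used here.

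GENCODE M21, on the same build, supplied names, types, coordinates, transcripts and GC content. It matched 42462 of 43346 gene rows, and its models may differ from those of the authors. Members, lists, pairs and settings were chosen with earlier results of these data known. Named genes are the 3 highest and the lowest of each role, both genes of each pair, all eIF2 and eIF2B subunits, members past 1.5-fold between replicates, and the 3 highest and the lowest partner. Values named beyond this rule, such as further eIF3 subunits, GC content and transcript shares, were chosen after the values were seen.

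Levels and ratios used log2(TPM + 1), which understates folds of low genes. Expected counts were rounded and scaled by TMM in edgeR 4.0.16, or by DESeq2 1.42.0 size factors as an alternative; no count model was tested. The scaling was tested on simulated data. R 4.3.3, Python 3.11.15, pandas 2.3.3 and statsmodels 0.14.6 were used. Intervals are exact (Clopper-Pearson) at 95%, and a count of 0 allows 3 counts, both for counting error only. Alternatives were other units, pseudocounts, thresholds, scalings, a GC trend and each replicate left out; protein-coding transcripts alone were added after the data were seen.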

Additional observations from a re-analysis of the deposited data

Results flagged for a closer look

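A processed pseudogene named after a member, Eif4a-ps4 on chromosome 1, is outside the protein-coding rule and had 70.05 estimated counts in replicate 1 and 70.9 in replicate 2. It was picked out because this is above the 3 counts that a count of 0 allows, in rows that the comparisons did not use. With Eif4a1, which had 6780.95 and 4068.1 estimated counts, it summed to 6851 in replicate 1 and 4139 in replicate 2, whole numbers within 0.01, while Eif4a2 and Eif4a3 had whole counts of their own.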

How the results depend on the processing

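The members' share of TPM, 0.935%, was 1.47% of expected counts, 1.29% of TPM without adult globin genes, 0.800% without the highest member and 1.46% of TPM on protein-coding transcripts, an alternative chosen after seeing the data. It ranged from 0.873% to 0.997% with a replicate left out, and members at 1 TPM, 52, from 52 to 55. The median level on log2(TPM + 1), 5.14, was 5.77 for members at 1 TPM in mean, 4.21 on protein-coding transcripts, and 5.06 to 5.31 with a replicate left out. Members lower in replicate 2, 7, became 12 by the ratio of TPM and 1 at a fold of 2. Members higher in replicate 2, 0, became 2 without a filter, Eif4e3 and Eef1akmt3, each on a single count. The log2 ratio of Eif1a to Eif1ax was 0.22 on protein-coding transcripts, against -7.03 by whole genes. The construction of each alternative sets these changes where it drops genes, counts or transcripts, and the cause was otherwise not tested. Of the 63 single levels, 17 moved on protein-coding transcripts, 10 on posterior means and 4 on FPKM. Of the 14 ratios, 9 moved with each smaller pseudocount, and on protein-coding transcripts 5 moved and 1 was reversed. A shift counted as moved could be small, as for Eif4ebp1 over Eif4ebp2, from 1.849 to 1.854 with a pseudocount of 0.5 TPM. Depth limits the 5 members with at most 1 count. No paired analysis was possible because the series holds 1 group.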
